A study of Mus musculus with 38 samples.

Results

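Brown adipose tissue was examined for the transcripts of 9 adipokines and other factors secreted by fat cells: Lep, Adipoq, Retn, Cfd, Rbp4, Agt, Apln, Nampt and Lcn2. The genes were chosen by their gene name on the arrays, and no measured value entered that rule, although earlier results of these data were known. They are 9 of the 29411 gene names on the array. All 9 were among the 21856 genes tested, which were well above background on at least 6 arrays.

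The study followed C57BL/6J mice while diet-induced obesity and diabetes developed, and a herbal formulation named Kal-1 was given to some of them. Mice were weaned at an age of 3 to 4 weeks and divided at random into 5 groups. The LFC group received a low fat control diet and the HFC group a high fat high sucrose diet. The HF5, HF20 and HF75 groups received the HFC diet together with Kal-1 at 5, 20 or 75 µg. LFC and HFC have 10 arrays each, at Day 6, Day 10, Day 14 and Weeks 0, 3, 6, 9, 12, 15 and 18, and each dose has 6 arrays at Weeks 3 to 18. Weeks are counted from Day 14, so Day 14 and Week 0 are the same day on the diet. There was 1 array per group and time point, and the labels do not say whether it held RNA of 1 animal or of several. The time points therefore served as replicates, and p-values measure only the spread between these arrays. No group received Kal-1 on the LFC diet, so an effect of the formulation apart from the high fat high sucrose diet is not part of the comparisons.

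Adipose tissue releases hormones that act on distant organs. Leptin reports fat stores to the brain and lowers food intake, whereas adiponectin raises insulin sensitivity and fatty acid oxidation. Other products are complement proteases, carriers of small lipophilic molecules, vasoactive peptides and enzymes of NAD synthesis. Brown fat burns lipid for heat and expresses little leptin compared with white fat, and the leptin level of brown fat is known to move with the lipid it stores. The transcripts measured here are those of the whole tissue, so fewer cells of a type and less RNA per cell cannot be told apart.

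Levels are given as the log2 of the processed signal relative to the 75th percentile of the array, so a gene at that percentile has the value 0. The difference of 2 such values is a log2 change. Levels of different genes come from different probes and were not set against each other.

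The arrays differed in overall brightness, and several of the 9 genes differed with it. The 75th percentile ran from 35.1 to 1209 intensity units, with 11 bright arrays above 600 and 27 dim arrays below. The bright arrays were LFC at Weeks 0, 3, 9 and 12, HFC at Day 10 and Week 3, HF20 at Weeks 3, 6, 12 and 15, and HF75 at Week 3. No HF5 array was bright. The 11 brown adipocyte markers, among them Ucp1, were all tested, and their mean lay between 0.88 and 4.23 on 37 arrays. It was -2.42 on the HF75 array of Week 3, which thereby stood apart from its label as brown fat. Several of the HF75 changes described below are also given without this array. Group means, counts and median changes of the 9 genes in HF75, and HF75 against HF5, include it. The classes are spread unevenly over the groups, so the counts and changes described for the 9 genes are also given with the brightness class as a term of the fit.

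The plot of all levels by time shows how the same arrays stood high for several of the genes. Lep was above its highest dim array on 10 of the 11 bright arrays, and the same count held for Adipoq and for Nampt. For Adipoq and Nampt the exception was the HF75 array of Week 3. The mean on bright minus the mean on dim arrays was 3.51 for Lep, 2.78 for Adipoq, 2.64 for Rbp4, 2.51 for Retn and 2.04 for Nampt. These differences lay above the upper quartile of all tested genes, 0.51, whose median was -0.32. Agt differed by 1.15, Cfd by 0.53 and Apln by -0.29. Lcn2 went the other way, with a difference of -2.48. How far RNA content, labelling or scanning takes part in this split was not tested. Within the 27 dim arrays, the Pearson r of level with the log2 75th percentile ran from -0.65 for Rbp4 to -0.13 for Nampt, except 0.41 for Agt. Arrays of the same class also differed, as at Week 18 with a 75th percentile of 147.7 in LFC and 49.83 in HFC. Values of the same class or with the class in the fit are therefore not free of brightness.

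**Figure D1:**
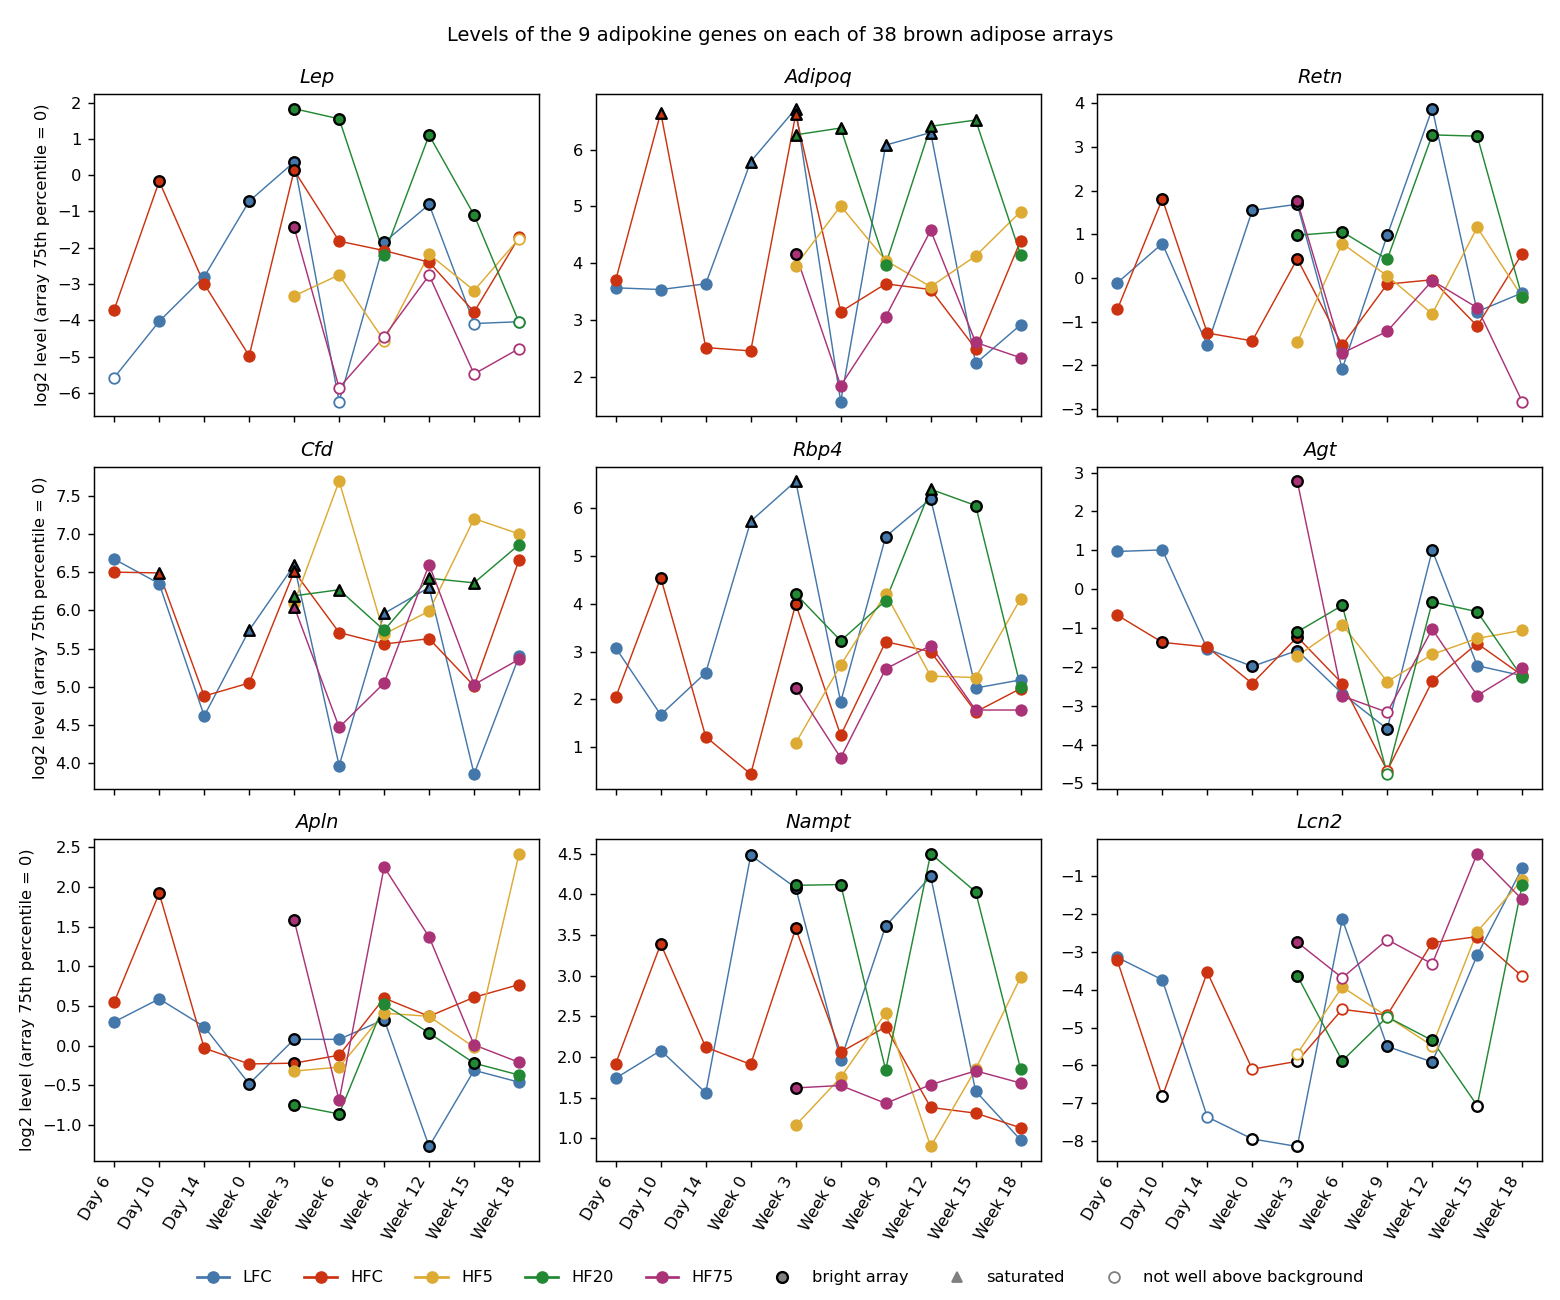
Log2 level (vertical axis, relative to the 75th percentile of the array) of each of the 9 genes against time point (horizontal axis), with 1 point per array coloured by group, a black edge for the 11 bright arrays, triangles for saturated spots and open points for spots not well above background. Lep, Adipoq, Rbp4 and Nampt were high on the bright arrays, and the lines of Nampt in HF75 stayed between 1.43 and 1.83 at all 6 time points.

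Saturation set a ceiling for the brightest genes. Adipoq was saturated on 10 of the 38 arrays, Cfd on 11 and Rbp4 on 3, all of them bright, so these values are lower bounds. The other 6 genes had no saturated spot. At the other end, Lep was well above background on 26 arrays and Lcn2 on 21. Agt reached that mark on 35 arrays, Retn on 37, and Adipoq, Cfd, Rbp4, Apln and Nampt on all 38. The plot against brightness shows the ceiling as a falling line of triangles, because a fixed maximum minus a rising percentile declines.

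**Figure D2:**
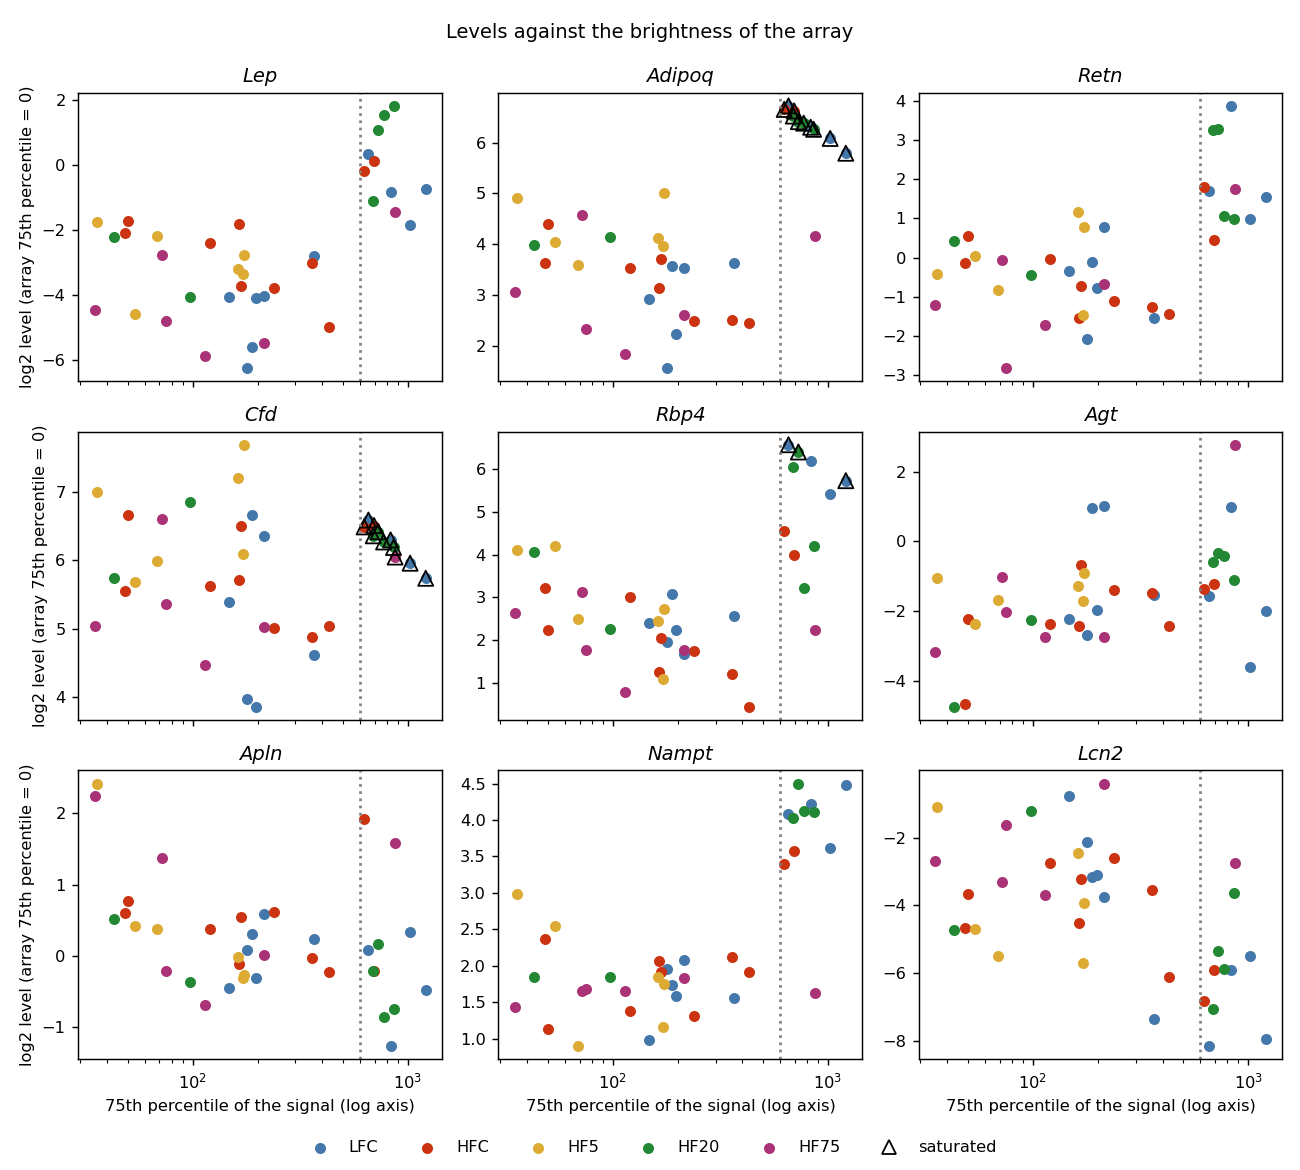
Log2 level of each gene (vertical axis) against the 75th percentile of the signal of the array (horizontal log axis, intensity units), with 1 point per array coloured by group, triangles for saturated spots and a dotted line at 600. Lep, Adipoq, Nampt and most Rbp4 values stepped up to the right of the line, Cfd did not, and Lcn2 lay lower there.

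Of the 36 pairs among the 9 genes, Lep and Adipoq had the most similar levels over the 38 arrays, with a Pearson r of 0.86, followed by Adipoq and Rbp4 with 0.83. These r values share the brightness of the arrays. Over the 27 dim arrays alone they were 0.65 and 0.60, and there the closest pair was Adipoq and Cfd at 0.87. The 250 bases before the start of Lep, Adipoq and Rbp4 are shown because these 3 genes form the closest pairs, with matches to a C/EBP motif, CCAAT box, GC box or TATA box in capitals (RefSeq, GRCm38.p6, each written 5′ to 3′ on the strand of the gene).
Lep promoter, chr6:29059971-29060220, plus strand: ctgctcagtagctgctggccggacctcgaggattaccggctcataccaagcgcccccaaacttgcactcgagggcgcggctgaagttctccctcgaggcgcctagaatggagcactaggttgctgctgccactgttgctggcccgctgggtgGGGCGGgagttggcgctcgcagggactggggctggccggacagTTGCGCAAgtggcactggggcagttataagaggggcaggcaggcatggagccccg
Adipoq promoter, chr16:23146286-23146535, plus strand: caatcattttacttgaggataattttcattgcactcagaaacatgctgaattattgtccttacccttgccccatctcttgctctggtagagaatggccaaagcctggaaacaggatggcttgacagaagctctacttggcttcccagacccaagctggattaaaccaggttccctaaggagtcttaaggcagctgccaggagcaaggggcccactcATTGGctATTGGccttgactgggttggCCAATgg
Rbp4 promoter, first listed start, chr19:38125322-38125571, minus strand: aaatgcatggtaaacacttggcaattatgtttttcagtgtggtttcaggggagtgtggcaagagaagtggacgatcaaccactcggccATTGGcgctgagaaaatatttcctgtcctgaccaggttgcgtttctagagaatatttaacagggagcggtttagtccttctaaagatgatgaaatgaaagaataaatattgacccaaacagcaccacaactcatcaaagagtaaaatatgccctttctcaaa
Rbp4 promoter, second listed start, chr19:38124812-38125061, minus strand: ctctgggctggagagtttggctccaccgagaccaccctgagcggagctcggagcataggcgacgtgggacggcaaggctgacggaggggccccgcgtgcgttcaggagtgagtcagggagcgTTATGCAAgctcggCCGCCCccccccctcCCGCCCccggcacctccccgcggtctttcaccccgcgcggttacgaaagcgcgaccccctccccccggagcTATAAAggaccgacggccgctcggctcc

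Both strands were searched for 6 motifs. The C/EBP motif was searched as TTGCNNAA, and the core of nuclear receptor sites as AGGTCA. An E-box was written as CACGTG, and a CCAAT box by the letters of its name. The GC box was searched with the letters GGGCGG, and the TATA box with the letters TATAAA. Lep held a C/EBP match that begins 55 bases before the start and a GC box at 98 bases. Adipoq held 3 CCAAT boxes, at 34, 27 and 7 bases. The first start of Rbp4 had a CCAAT box at 162 bases, and the second a C/EBP match at 128, GC boxes at 114 and 99 and a TATA box at 28 bases before the start. The C/EBP motif occurred in 9.56% of 32851 promoter windows of this length, the CCAAT box in 33.8%, the GC box in 32.7% and the TATA box in 12.4%. The nuclear receptor core occurred in 14.0% and the E-box in 6.02% of them, and neither was found in these 4 windows. No motif was shared by all 4 windows. Cebpa, which encodes a factor named for the first motif, had a log2 change of -0.10 in HFC against LFC.

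Over the 5 groups, HF20 had the highest mean of Lep, Adipoq, Retn, Rbp4 and Nampt, and HF75 had the lowest mean of these 5 genes and of Cfd. Cfd had its highest mean in HF5, 6.61 ± 0.79 (SD, n = 6). Agt was highest in LFC, -1.26 ± 1.66 (SD, n = 10), and lowest in HFC, -2.03 ± 1.11 (SD, n = 10). Apln and Lcn2 had their highest means in HF75, 0.72 ± 1.17 and -2.41 ± 1.21 (SD, n = 6). The ranges of the highest and the lowest group overlapped for 8 of the 9 genes, and only for Nampt did they not, with 1.84 as the lowest HF20 value and 1.83 as the highest of HF75. These ranks pool bright with dim arrays and the 10 time points of LFC and HFC with the 6 of the doses. Among dim arrays alone HFC had the highest mean of Lep, -2.93 against -3.12 on the 2 dim arrays of HF20, and HF5 that of Adipoq, 4.28 against 4.07.

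The first question was whether the high fat high sucrose diet altered the secreted factors. None of the 9 genes passed an adjusted p of 0.05 in HFC against LFC (limma, 20 arrays, time point as a block), where 0% of all tested genes passed. At an unadjusted p of 0.05, 1 of the 9 genes was counted, Rbp4, against 6.98% of all genes. The median change of the 9 genes was -0.32 beside 0.06 over all genes, and -0.05 beside 0 with the brightness class in the fit. At Weeks 3 to 18 the count was again 0 (background 0.00915%), with 1 gene, Rbp4, at the unadjusted threshold (background 14.4%). Adding the brightness class changed which genes were counted at the unadjusted threshold. Over all time points these were then Lep and Rbp4 (2 of 9, background 6.67%). At Weeks 3 to 18 Rbp4 dropped out and Lep, at 1.90 (unadjusted p = 0.0053), and Cfd, at 0.89 (unadjusted p = 0.0385), came in (2 of 9, background 6.4%). For Lep, 3 of 6 LFC arrays of these weeks were well above background. Raising dimmer signals to the lowest such signal of the array took its change without the class from 0.84 to 0.46. For Cfd, 3 of 6 LFC spots and 1 of 6 HFC spots were saturated. The methods' t-test, run here unpaired and with equal variance because its form is not given, called 0 of the 9 after adjustment.

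Lep encodes leptin. In LFC its levels ran from -6.24 to 0.36 with a median of -3.41, and in HFC from -4.98 to 0.13 with a median of -2.24. The highest 4 LFC arrays and the highest 2 HFC arrays were the bright ones, and the groups overlapped over most of their range. All 10 HFC arrays were well above background for Lep against 6 of the 10 LFC arrays. Among dim arrays alone this was 8 of 8 in HFC, with a mean of -2.93 ± 1.15 (SD, n = 8), and 2 of 6 in LFC, with a mean of -4.46 ± 1.24 (SD, n = 6). The log2 change was 0.63 ± 0.73 (SE, limma adjusted p = 0.752), with HFC higher at 5 of 10 time points. Adding the brightness class to the fit gave 1.25 ± 0.53 (SE, limma adjusted p = 0.741). At the 6 time points where both arrays were of the same class, HFC was higher at 4, with the widest gap at Week 6, where the LFC array was not well above background. With signals near background raised to a floor, the lowest signal well above background on the array, that gap was 2.18 and the fitted change was 0.28.

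Adipoq encodes adiponectin. LFC levels ran from 1.57 to 6.72 with a median of 3.6 and HFC levels from 2.46 to 6.65 with a median of 3.59. All values of 5.79 or more were saturated, in 4 LFC and 2 HFC arrays. The change was -0.32 ± 0.60 (SE, limma adjusted p = 0.843), and its sign turned with the brightness class in the fit, 0.29, and with saturated spots left out, 0.47. Adiponectin is assembled in the endoplasmic reticulum, where ERp44 retains it until its chains are joined, and Erp44 had a change of -0.24. The adiponectin receptors had changes of -0.03 (Adipor1) and -0.32 (Adipor2), and Cdh13, whose product T-cadherin binds the hormone, one of 0.11. All of these had a limma adjusted p above the threshold.

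Retn encodes resistin, a cysteine-rich hormone of mouse adipocytes that impairs insulin action. Its levels ran from -2.08 to 3.88 in LFC (median 0.34) and from -1.54 to 1.81 in HFC (median -0.43). The LFC array of Week 12 was the highest of all 38 arrays. The change was -0.75 ± 0.47 (SE, limma adjusted p = 0.644), -0.33 with the class in the fit and -0.08 over the 6 time points of the same class. Retn was read by 2 probes whose levels had an r of 0.97 over 38 arrays, and both are shown because they overlap by 22 bases, in capitals, and so are not separate measurements.
Retn first probe: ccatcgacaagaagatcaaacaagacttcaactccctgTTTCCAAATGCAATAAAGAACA
Retn second probe: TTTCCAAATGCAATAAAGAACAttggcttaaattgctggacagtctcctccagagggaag
The sequences are printed in alphabetical order, which does not tell their means. The probe with the lower mean gave a difference of -0.56. The related genes Retnla and Retnlg, which encode further resistin-like molecules, had changes of -0.64 and 1.18.

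Cfd encodes complement factor D, also called adipsin, a protease that starts the alternative complement pathway by cutting factor B. LFC ran from 3.86 to 6.67 and HFC from 4.88 to 6.66, with medians of 5.85 and 5.67. The lowest 3 arrays of the comparison were LFC arrays of Day 14 and Weeks 6 and 15. The change was 0.25 ± 0.27 (SE, limma adjusted p = 0.733), with HFC higher at 5 of 10 time points, and 0.39 with the class in the fit. C3 and Cfb, its partners in the pathway, had changes of -0.27 and -0.11.

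Rbp4 encodes retinol-binding protein 4, which carries vitamin A in plasma and is also released by fat cells. Its LFC levels ran from 1.68 to 6.57 with a median of 2.82 and its HFC levels from 0.44 to 4.55 with a median of 2.14. At each time point from Day 14 on, and at Day 6, the HFC array was the lower one of the pair. The exception was Day 10, where HFC was higher by 2.87 and the HFC array was bright and the LFC array dim. HFC was thus lower at 9 of 10 time points, as were 1.67% of all genes at no fewer. The widest gaps, -5.29 at Week 0 and -3.20 at Week 12, joined a bright LFC with a dim HFC array.

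The change of Rbp4 was -1.41 ± 0.61 (SE), a fold of 0.375, with an unadjusted p of 0.0395 and a limma adjusted p of 0.644. Adding the brightness class to the fit gave -0.82 ± 0.33 (SE, limma adjusted p = 0.732), and leaving out saturated spots gave -0.79. At the 6 time points of the same class HFC was lower at all 6, as were 2.17% of all genes, with a mean difference of -1.05 ± 0.85 (SD, n = 6). Within the bright arrays the mean was 5.98 ± 0.51 in LFC (SD, n = 4) and 4.28 ± 0.39 in HFC (SD, n = 2), where 2 of the LFC spots were saturated, so the LFC mean is a lower bound. Within the dim arrays it was 2.32 ± 0.49 (SD, n = 6) and 1.89 ± 0.93 (SD, n = 8), so these overlapped. At Weeks 3 to 18 the change was -1.56 ± 0.70 (SE, limma adjusted p = 0.337), lower at 6 of 6 time points, as were 4.33% of all genes. The class in the fit brought it to -0.68 ± 0.51 (SE, unadjusted p = 0.198). The probe of LOC100047573 followed that of Rbp4 with an r of 1 to 2 decimals, so the reading of either may include the other. Stra6, the membrane receptor for the carrier, had a change of 0.06, and Ttr, which binds it in plasma and is best known from liver, was not tested.

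Lcn2 encodes lipocalin 2, which binds bacterial siderophores and is made by neutrophils and inflamed tissues as well as fat cells. Its levels were near background, with 7 of 10 LFC and 4 of 10 HFC arrays well above it. LFC ran from -8.14 to -0.79 and HFC from -6.82 to -2.60, with medians of -4.62 and -4.09. The change was 0.40 ± 0.70 (SE, limma adjusted p = 0.833), against -0.05 once the brightness class was added to the fit and -0.46 after quantile normalization. Its receptor Slc22a17 had a change of -0.07.

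Agt encodes angiotensinogen, the precursor of the blood pressure peptide angiotensin II. LFC levels ran from -3.6 to 1.01 (median -1.77) and HFC levels from -4.67 to -0.67 (median -1.86). The highest 3 values were LFC arrays, at Days 6 and 10 and Week 12. The change was -0.77 ± 0.39 (SE, limma adjusted p = 0.644) and -0.71 with the class in the fit, while at the 6 time points of the same class HFC was higher at 5 and the mean difference was -0.07. Ren1 and Ace, the enzymes that release the peptide, had changes of 0.73 and 0.25, and its receptor Agtr1a one of -0.42. Agtr2 was not tested.

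Apln encodes apelin, a peptide that relaxes vessels and aids glucose uptake. LFC ran from -1.27 to 0.59 and HFC from -0.23 to 1.92, with medians of 0.08 and 0.46. The change was 0.51 ± 0.24 (SE), with an unadjusted p of 0.0537 and a limma adjusted p of 0.644, and HFC was higher at 7 of 10 time points. The class in the fit left it at 0.52. The other 2 probes of Apln had an r of 0.22 and 0.54 with the one used and differences of 0.03 and 1.51, the latter from a probe above background on 4 arrays, so the probes disagreed. The apelin receptor gene Aplnr had a change of 0.60.

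Nampt encodes the rate-limiting enzyme of NAD salvage, which cells also release as visfatin. LFC ran from 0.98 to 4.48 and HFC from 1.13 to 3.58, with medians of 2.02 and 1.99. The change was -0.51 ± 0.39 (SE, limma adjusted p = 0.662) and -0.13 with the class in the fit. At the time points of the same class the mean difference was 0.04 ± 0.37 (SD, n = 6), and the second probe gave 0.18. Nmnat1 and Nmnat3, the next enzymes of the route, had changes of -0.58 and -0.33, and Nnmt, which removes nicotinamide by methylation, one of 0.91 (unadjusted p = 0.0163).

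**Figure D3:**
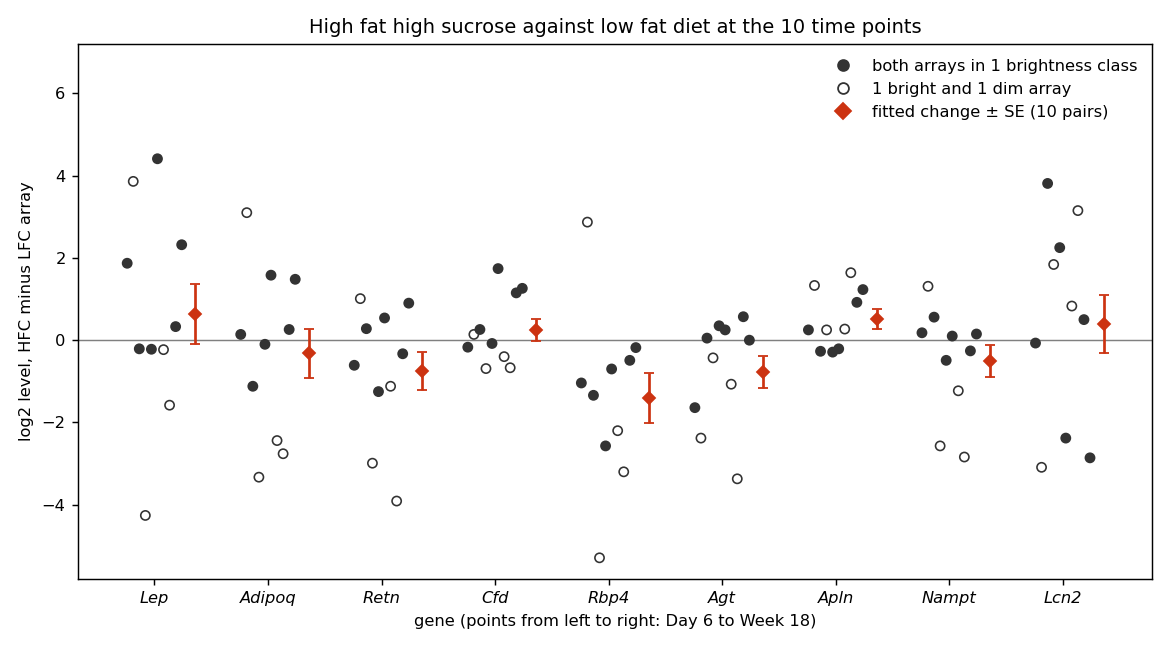
Log2 level of the HFC array minus that of the LFC array (vertical axis) at each of 10 time points for each gene (horizontal axis), with filled points where both arrays were of the same brightness class, open points where they were not, and diamonds for the fitted change with its SE. The 6 filled points of Rbp4 all lay below 0, and the widest differences of Adipoq, Rbp4 and Nampt were open points.

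The second question was whether Kal-1 altered these genes on the high fat high sucrose diet. The 3 doses were compared with the same 6 HFC arrays, so the comparisons are not independent, and their values are set side by side. None of the 9 genes passed the adjusted threshold at any dose (limma, 30 arrays), where 0% of all tested genes passed at each dose. At the unadjusted threshold the counts were 0 of 9 in HF5 (background 5.45%), 4 of 9 in HF20 (background 33.1%) and 1 of 9 in HF75 (background 9.14%). With the class in the fit they were 2 of 9 in HF5 (Cfd and Agt, background 9.58%), 0 of 9 in HF20 (background 3.11%) and 2 of 9 in HF75 (Lep and Lcn2, background 16.5%). The median change of the 9 genes was 0.18 in HF5, 1.44 in HF20 and -0.42 in HF75, beside 0.01, -0.20 and -0.03 over all genes. With the brightness class in the fit these medians were 0.66, 0.11 and -0.42, beside 0.03, 0 and -0.03.

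**Figure D4:**
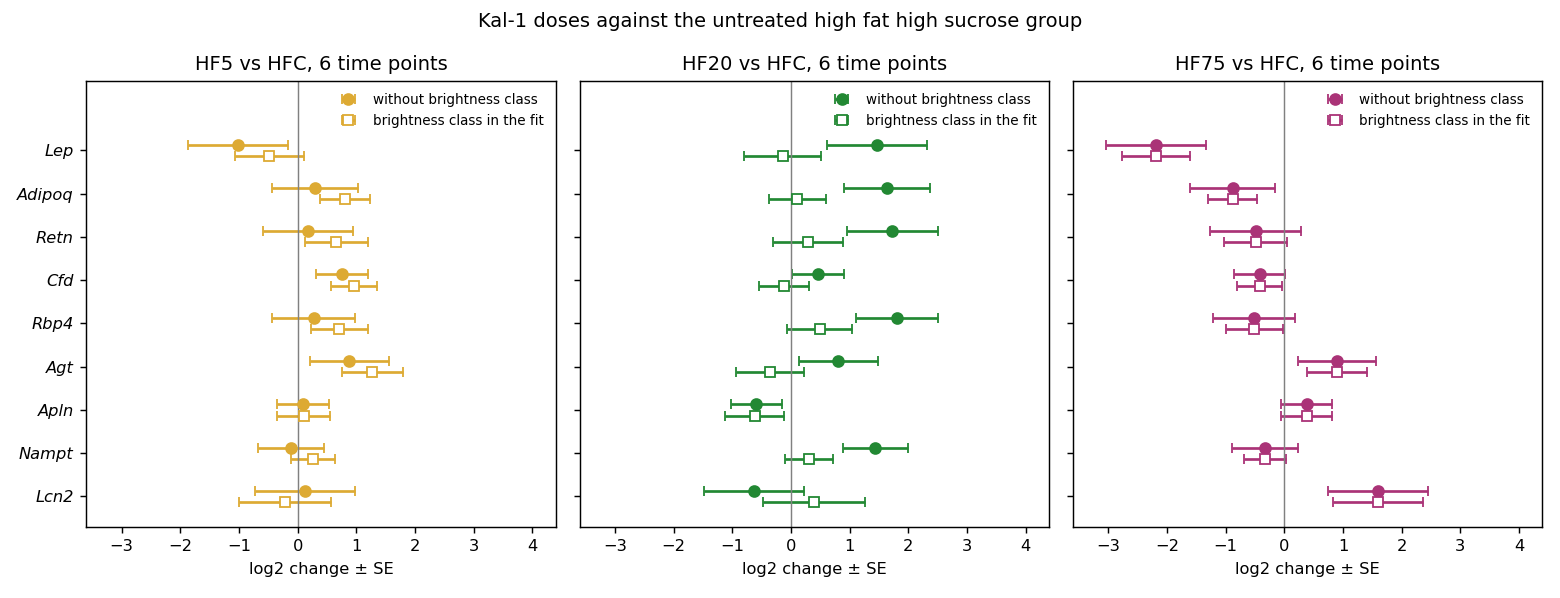
Log2 change against HFC with its SE (horizontal axis) of each gene (vertical axis) in HF5, HF20 and HF75, from fits without (filled circles) and with (open squares) the brightness class, 6 time points per group. The filled and open marks coincided in HF75 and parted most in HF20, where Lep, Adipoq, Retn, Rbp4 and Nampt had changes of 1.44 to 1.80 without the class and of -0.14 to 0.49 with it.

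The group means of Lep were -0.48 ± 2.37 in HF20 (SD, n = 6), -2.35 ± 1.59 in HFC (SD, n = 10), -2.96 ± 0.99 in HF5 (SD, n = 6), -2.98 ± 2.19 in LFC (SD, n = 10) and -4.13 ± 1.70 in HF75 (SD, n = 6). Each gap between neighbours in this order was smaller than the larger of their SDs. On the HF75 arrays of Weeks 3, 6, 9, 12, 15 and 18 its levels were -1.44, -5.86, -4.45, -2.76, -5.48 and -4.78. Only the Week 3 array was well above background. On the HFC arrays of the same weeks the levels were 0.13, -1.82, -2.08, -2.40, -3.77 and -1.71, all well above background. HF75 was lower at 6 of 6 time points, with differences of -4.04 to -0.36, as were 2.52% of all genes, although the ranges of the groups overlapped. The change was -2.19 ± 0.85 (SE), a fold of 0.220, with an unadjusted p of 0.0165 and a limma adjusted p of 0.538. At each of these weeks both arrays were of the same class, and with the class in the fit the change was the same with a limma adjusted p of 0.180. Leaving out the marker-poor HF75 array of Week 3 gave -2.37 (limma adjusted p = 0.812).

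The size of this difference rests on signals near background. With dimmer signals set to that of the dimmest probe well above background on the array, the change was -0.88 (limma adjusted p = 0.790). With normexp background correction it was -0.23. Under the floor HF75 was still lower at each of the 6 time points, with a difference of -0.1 at Week 9. All 6 HFC spots were well above background, so the floor could raise only HF75 values. These signs thus rest partly on the floor of each array. Values of the brown adipocyte markers are given for the same comparison. Of the 11 markers, 2 were lower in HF75 at an unadjusted p of 0.05 (limma), beside 4.28% of all genes. The median change of the markers was -1.43, and their mean ran from -2.42 to 2.23 in HF75 and from 0.99 to 3.38 in HFC. Without the HF75 array of Week 3 the median was -0.48, with 0 of the 11 counted and a lowest mean of 1.39. The change of Lep without it was -2.37. Of the general adipocyte markers 8 of 9 were tested, and their median change was -0.52, or -0.25 without that array. At the unadjusted threshold 1 of them was counted higher and 0 lower, beside 4.86% and 4.28% of all genes. These 2 marker counts were the same without that array. The part of these cell markers in the Lep values was not tested. Lepr, which encodes the leptin receptor, had a change of 2.74, and 2.17 without that array. Socs3, a feedback inhibitor induced by leptin signalling, had 0.38, and 0.01 without it (limma, all above the adjusted threshold).

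The doses differed from one another in Lep by a moderated F test (limma, unadjusted p = 0.000867, adjusted p = 0.0342). Lep was the 1 of 9 genes that passed this test, where 13.4% of all genes passed. At the unadjusted threshold 7 of 9 were counted, against 37.3% of all genes. Lep levels ran from -4.56 to -1.75 in HF5, from -4.06 to 1.83 in HF20 and from -5.86 to -1.44 in HF75, with medians of -2.96, 0 to 2 decimals and -4.61. The highest HF20 arrays, those of Weeks 3, 6, 12 and 15, were bright and lay above every array of HF5 and HF75. HF20 was above HF5 by 2.48 ± 0.85 (SE, limma adjusted p = 0.0708), and HF75 against HF5 was -1.17 ± 0.85 (SE, limma adjusted p = 1). With the brightness class in the fit 5 of 9 were counted at the unadjusted threshold (background 11.4%), the F test of Lep no longer passed (adjusted p = 0.288), HF20 against HF5 was 0.35, and HF75 against HF5 was -1.70 ± 0.59 (SE, limma adjusted p = 0.342). Without the HF75 array of Week 3 the adjusted p of the F test was 0.0643, and without the arrays of Week 3, 6, 12 or 15 it was 0.101, 0.155, 0.181 and 0.186. Without those of Week 9 or 18 it was 0.0255 and 0.0149, in fits where 5392 and 5373 of all genes passed.

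**Figure D5:**
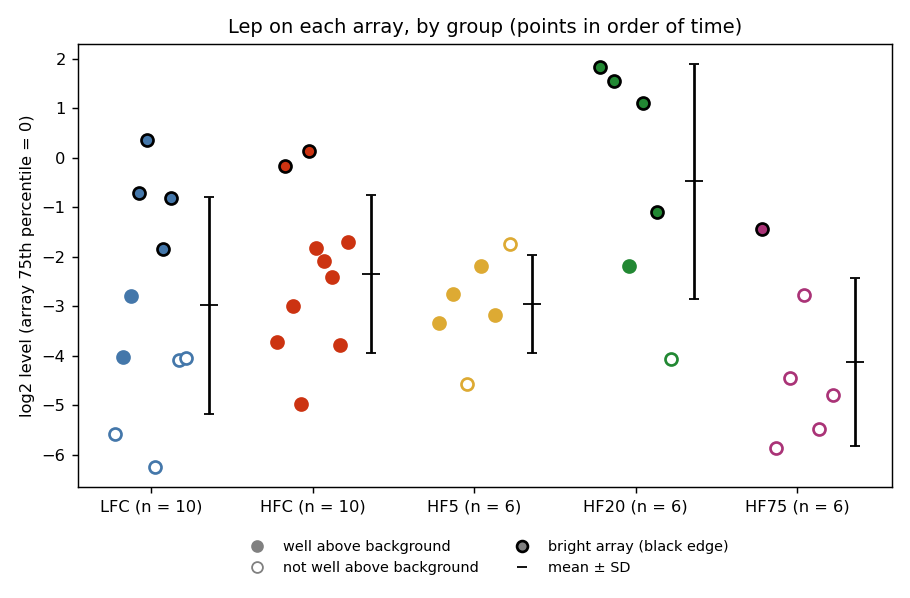
Log2 level of Lep (vertical axis) on each array in the 5 groups (horizontal axis, points in order of time), with open points for arrays not well above background, a black edge for bright arrays, and the mean ± SD of 10 or 6 arrays. The 10 HFC arrays were all well above background, and 5 of the 6 HF75 arrays were not.

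The HF20 group held 4 of the 11 bright arrays, and 3 of its 6 time points paired a bright HF20 array with a dim HFC array. Rbp4 in HF20 had levels of 4.21, 3.23, 4.07, 6.40, 6.06 and 2.26 from Week 3 to Week 18, beside 4.00, 1.25, 3.21, 3.00, 1.74 and 2.23 in HFC. The HF20 spot of Week 12 was saturated, so its 6.40 is a lower bound. HF20 was higher at 6 of 6 time points, as were 3.32% of all genes, by as little as 0.04 at Week 18 and by 4.32 at Week 15. The change was 1.80 ± 0.70 (SE, unadjusted p = 0.0168, limma adjusted p = 0.120). Adding the brightness class to the fit gave 0.49 ± 0.55 (SE), and the time points of the same class had a mean difference of 0.37 ± 0.44 (SD, n = 3). Without Week 3 the change was 2.12 with an adjusted p of 0.0457, in a fit where 3592 genes passed.

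The other unadjusted calls in HF20 were Nampt at 1.44, Adipoq at 1.64 and Retn at 1.73, all higher. Adipoq was saturated on 4 of 6 HF20 arrays and on 1 of 6 HFC arrays of these weeks. With the class in the fit these changes were 0.31, 0.11 and 0.29. Markers of several cell types are given for the same comparison, in which 13.2% of all genes were counted higher and 19.9% lower at the unadjusted threshold. The median change was 1 for the 11 brown adipocyte markers (3 counted higher at the unadjusted threshold) and 0.63 for 8 general adipocyte markers (2 higher, 1 lower). It was -1.48 for 5 lymphocyte markers (3 lower), -1.57 for 5 erythroid markers (3 lower) and -1.45 for 4 endothelial markers (2 lower). With the class these medians were 0.35, 0.16, -0.40, -0.05 and -0.05, and 6 skeletal muscle markers went from 1.33 to 2.42 (0 counted). Their part in the changes of the 9 genes was not tested. Apln was lower in HF20 at 6 of 6 time points, as were 3.29% of all genes, with differences of -1.14 to -0.08 and a change of -0.59 ± 0.44 (SE, limma adjusted p = 0.323). That value was -0.62 with the class. Aplnr had a change of -2.21 in HF20 (unadjusted p = 0.00314, limma adjusted p = 0.118), and -1.10 with the class, beside the endothelial markers above.

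The HF5 group held dim arrays only. Cfd there ran from 5.69 to 7.69 with a median of 6.55, beside 5.01 to 6.66 with a median of 5.67 in HFC at the same weeks. HF5 was higher at 5 of 6 time points, as were 19.2% of all genes at no fewer, and the gaps at Weeks 6 and 15 were 1.98 and 2.19. The exception was Week 3, where the HFC array was bright and its Cfd spot saturated. The change of Cfd was 0.76 ± 0.44 (SE, limma adjusted p = 0.822), and 0.96 with the class in the fit. At the 5 time points of the same class, Cfd, Adipoq and Agt were each higher at all 5, as were 8.82% of all genes, with mean differences of 1, 0.89 and 1.16. The HFC spot of Agt at Week 9 was not well above background, and with the floor the mean difference of Agt was 0.72 and its fitted change 0.52 instead of 0.88. In HF75 the mean differences from HFC over 6 time points were -0.42, -0.88 and 0.90, and the fitted changes without the array of Week 3 were -0.48, -0.82 and 0.13.

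Lcn2 was higher in HF75 than in HFC at 5 of 6 time points, as were 15% of all genes at no fewer. Its levels were -2.75, -3.69, -2.68, -3.32, -0.41 and -1.62 in HF75 from Week 3 to Week 18, beside -5.89, -4.52, -4.67, -2.76, -2.60 and -3.65 in HFC. Of these, 3 HF75 and 2 HFC arrays were well above background. The change was 1.60 ± 0.85 (SE, limma adjusted p = 0.564), 1.15 with the floor, 0.53 with normexp and 1.34 without the HF75 array of Week 3. Of 9 neutrophil markers 7 were tested, and their median change in HF75 was 0.96, or 1.13 without that array. At the unadjusted threshold 1 was counted higher, beside 4.86% of all genes, and 0 without that array. The mean level of these markers ran from -0.31 to 1.69 in HF75 and from -4.69 to 0.72 in HFC over all its time points. The part of these cells in the Lcn2 values was not tested.

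Agt in HF75 was set by 1 array. Its level was 2.78 on the array of Week 3 and between -3.17 and -1.03 on the other 5. The change was 0.90 ± 0.67 (SE, limma adjusted p = 0.630), and 0.13 without that array. Nampt in HF75 had the narrowest spread of any gene and group here, 1.64 ± 0.13 (SD, n = 6), and its bright array at 1.62 lay within the range of the dim ones.

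The third question was whether the levels moved over the course of the diet in LFC and HFC. None of the 9 genes passed in the trend over days, where 1.63% of all genes passed, or in the product of diet and day, where 0% passed. With the class in the fit none of the 9 passed either, while 7.93% and 3.06% of all genes did. Lcn2 had the smallest unadjusted p of the trend, 0.0206 (1 of 9 genes, background 21.3%), with a slope of 0.63 ± 0.25 per 30 days (SE, limma adjusted p = 0.154). Its slope was 0.77 in LFC and 0.49 in HFC. The 3 lowest LFC values, at Day 14 and Weeks 0 and 3, were not well above background, and the highest was that of Week 18. For diet by day Apln had the smallest unadjusted p, 0.138 (0 of 9 genes below 0.05, background 15.3%), with a slope in HFC above that in LFC by 0.23 ± 0.14 per 30 days (SE, limma adjusted p = 0.504). With the class, Nampt at -0.13 and Lcn2 at 0.49 per 30 days were counted at the unadjusted threshold in the trend (2 of 9, background 26.6%), and Cfd at 0.30 in diet by day (1 of 9, background 25%). Time on the diet and age of the mice cannot be told apart.

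The genes with levels most like those of each member are given as a description over 38 arrays that share their brightness. For Lep these were Glb1l2 (0.88), Apol6 (0.87) and Adipoq (0.86), and for Adipoq they were Ces3 (0.96), Pon3 (0.96) and Apol6 (0.95). Retn was nearest to Slc7a10 (0.91), B3galt2 (0.87) and 6530401D17Rik (0.86). Cfd was nearest to Slc7a10 (0.69), Cyp2e1 (0.67) and Adipoq (0.67), and over the 27 dim arrays these were 0.87, 0.80 and 0.87. Slc7a10, an amino acid transporter used as a marker of white adipocytes, is thus the nearest gene of Retn and of Cfd. It is 1 of 6 white adipocyte markers listed, of which 4 were tested. Their changes in HFC against LFC ran from -0.39 to 0.91. Unlike Retn, their mean level had similar medians on bright and dim arrays, -3.22 and -2.95, so Slc7a10 alone does not stand for that list. Rbp4 was nearest to LOC100047573, then Mogat1 (0.94), which encodes an enzyme of triglyceride synthesis, and Mrpl50 (0.93). Nampt was nearest to Crls1 (0.97), the cardiolipin synthase, Tomm70a (0.96), a mitochondrial import receptor, and Wdr61 (0.96). Over the dim arrays these 3 values were 0.79, 0.87 and 0.79.

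Lcn2 was nearest to Ifitm6 (0.85), Slpi (0.83) and Mmp8 (0.83), the last a collagenase of neutrophil granules. Within the dim arrays the values were 0.80, 0.76 and 0.74. The neighbours of Agt were Gcgr, Psat1 and Krtap3-1, each at 0.74. Those of Apln were Gm3032 (0.68), AI427809 (0.66) and Chga (0.65).

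Other genes of the same systems gave few calls. Of 26 other secreted factors 25 were tested, of 34 receptors, partners and enzymes 30, and of 8 adipocyte regulators 8. None passed the adjusted threshold in HFC against LFC or in any dose against HFC (limma). At the unadjusted threshold in HFC against LFC, 2 secreted factors were higher and 0 lower, 1 partner was higher and 1 lower, and 0 regulators were counted. Of all genes, 4.78% were higher and 2.2% lower at that threshold. The medians of these lists were 0.01, -0.13 and -0.07 beside 0.06 over all genes. C1qtnf3, which encodes a relative of adiponectin, had the smallest unadjusted p of the factors, 0.0131, with a change of 1.47. It was well above background on 6 arrays only. Nnmt had that of the partners, and Srebf1, which encodes a regulator of fatty acid synthesis, that of the regulators, at -0.99 (unadjusted p = 0.0659).

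Among these lists the doses differed by the adjusted F test in Vegfa (adjusted p = 0.0391), an angiogenic factor, in Lepr (0.0414), Aplnr (0.0352), Nmnat1 (0.0397) and Nmnat3 (0.0352), and in Cebpa (0.0342) and Srebf1 (0.0475). The changes of Cebpa were -0.39 in HF5, 1.90 in HF20 and -1.40 in HF75 (-1.12 without the array of Week 3), and those of Lep were -1.02, 1.46 and -2.19. Aplnr had 0.20, -2.21 and 0.24. These 7 of 63 tested genes stand beside 13.4% of all genes, and with the brightness class in the fit 0% of all genes passed this test. Without the HF75 array of Week 3 all 7 had an adjusted p from 0.0643 to 0.0822. Lepr was also called in the trend over days, at 1.09 ± 0.27 per 30 days (SE, limma adjusted p = 0.05 to 2 decimals and just below the threshold). It was the 1 of 63 genes called there, beside 1.63% of all genes. With the class 4 of the 63 passed in the trend, beside 7.93% of all genes. These were Lepr at 0.93 (limma adjusted p = 0.012), Aplnr at -0.50 (0.00979), Cap1 at -0.28 (0.0306) and Cebpa at -0.28 (0.0436). Cap1 encodes a protein reported to bind resistin. In diet by day with the class, Ptgds, a prostaglandin D synthase, was the 1 of 63 that passed, at 0.67 (0.0377), beside 3.06% of all genes.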

How the data were processed

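Brown adipose RNA of 38 samples was labelled with Cy3 (Quick-Amp) for 1-colour Agilent arrays on 32 slides, scanned on 12 days. Groups, doses and time points were taken from the sample labels. The deposited scanner files hold spot intensity values from Feature Extraction 10.5.1.1, in which the authors' processed signal is corrected for background but not scaled between arrays, together with flags for saturated spots and spots well above background. A further deposited table is in log2 units, taken by the authors against the LFC array of each time point. Column medians there ran from -0.85 to 1.55. The r with the scanner values was 1 to 2 decimals except at Week 15 (-0.01 to 0), so it served only as an alternative without Week 15. The number of unmapped sample columns was 0.

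From the log2 of each processed signal, the 75th percentile of that array was subtracted. Each of 29411 gene names was represented by its probe of highest mean, of 40628 probes, and 2492 spots with outlier flags were left out. Genes well above background on at least 6 arrays, 21856 in all, entered two-sided limma tests (version 3.58.1, lmFit with eBayes) in R 4.3.3, and p-values were adjusted by Benjamini-Hochberg over these genes, with 0.05 as the threshold. The time point was a block in the diet comparison and in diet by day (20 arrays each) and in the dose comparisons (30 arrays). For the trend over days, the 20 arrays were fitted with diet and without the block, and days were 14 plus 7 per week. The study's methods compare 3 values per group at each time point, which the labels do not give here, so time points served as replicates. The text names the 9 members, the 3 genes nearest to each by Pearson r, fixed partner genes, and list genes that passed or had the smallest p. The members, lists and the boundary of 600 between bright and dim arrays were chosen with earlier results of these data known. The fits were tested on simulated data. Promoter windows are those of RefSeq (GRCm38.p6), and all 9 members matched by symbol.

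Alternatives were quantile normalization, normexp (offset 50), the brightness class, slide or scan day as a random block, no filter, the mean of all probes, saturated spots left out, no block, Day 14 and Week 0 joined, the methods' t-test, the deposited table and each time point left out. Chosen after seeing the data were a floor at the lowest signal well above background, the time points with both arrays of the same class, and leaving out the HF75 array of Week 3. Few arrays and dim signals limit the precision, and 36.6% to 78.8% of the probes on an array were well above background.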

Additional observations from a re-analysis of the deposited data

Results flagged for a closer look

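Of 45 sets of arrays (9 genes in 5 groups), 4 held an array whose gap to the nearest other array took up an unusual share of the range of the group. Chance gives about 1 in 20 such sets. Agt on the HFC array of Week 9 was lowest at -4.67, with the next value at -2.43, but that spot was not well above background, and with the floor its difference from LFC at Week 9 turned from -1.07 to 1.14. Agt on the HF75 array of Week 3, the array with low brown adipocyte markers, was highest at 2.78, with the next at -1.03. Apln on the HFC array of Day 10 was highest at 1.92, with the next at 0.77, and Apln on the HF5 array of Week 18 was highest at 2.42, with the next at 0.41.

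The effects of the doses on Lep differed from each other by the moderated F test (limma adjusted p = 0.0342), and that call was lost with the brightness class in the fit (0.288).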

How the results depend on the processing

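None of the 9 genes passed in HFC against LFC over all times or at Weeks 3 to 18, in HF5 or HF75 against HFC, in the trend over days or in the product of diet and day, under any alternative run. In HF20 against HFC the count was 0 to 1 when a time point was left out, and 3592 of all genes passed where it was 1. For the difference among doses, 1 gene (Lep) passed, against 0 with normexp, the brightness class, no filter or without the HF75 array of Week 3, 5 with the slide and 3 with the scan day as a random block, and 4 with the floor. Leaving out a time point gave 0 to 3. Without the time point as a block, the pairing of arrays by time, the count was 0 (Lep adjusted p = 0.0545), and no other count changed. Over all 21856 genes, 2930 passed this test, against 0 to 6462 under the alternatives. The number was 6462 with the slide, 3867 with the scan day and 4180 with the floor. It was 0 to 5392 when a time point was left out, so the counts of all genes moved in the same settings.

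Several changes turned their sign, all far from the threshold. With the brightness class they were 0.29 for Adipoq and -0.05 for Lcn2 in HFC against LFC, 0.70 for Adipoq, 0.10 for Retn, 0.22 for Agt and -0.43 for Lcn2 at Weeks 3 to 18, 0.26 for Nampt and -0.22 for Lcn2 in HF5, and -0.14 for Lep, -0.12 for Cfd, -0.35 for Agt and 0.39 for Lcn2 in HF20. At time points of the same class they were 0.38 for Adipoq and 0.04 for Nampt in HFC against LFC, 0.35 for Nampt in HF5, and -0.25 for Lep, -0.09 for Adipoq, -0.01 for Agt and 1.54 for Lcn2 in HF20. Adipoq was 0.47 and 1.07 (Weeks 3 to 18) with saturated spots left out. Quantile normalization gave -0.46, -0.95 (Weeks 3 to 18) and 0.45 (HF20) for Lcn2 and -0.11 for Adipoq in HF5. Normexp gave -0.05 for Retn, 0.01 for Nampt and -0.02 for Lcn2 in HF5 and 0.01 for Retn in HF75. The slide gave -0.14 for Lcn2 in HF5, and the deposited table -0.25 for Retn in HF5 and 0.12 for Lcn2 in HF20. The cause was not tested.

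Leaving out a time point gave -0.70 to 0.02 for Adipoq in HFC against LFC. At Weeks 3 to 18 it gave -0.71 to 0.16 for Adipoq, -0.77 to 0.02 for Agt and -0.33 to 0.87 for Lcn2. In HF5 it gave -0.01 to 0.89 for Adipoq, -0.25 to 0.60 for Retn, -0.05 to 0.91 for Rbp4, -0.22 to 0.24 for Apln, -0.50 to 0.35 for Nampt and -0.37 to 0.69 for Lcn2. In HF20 it gave -1.24 to 0.14 for Lcn2, and in HF75 -0.85 to 0.09 for Retn. Of 16 other slopes over days or of diet by day, 13 turned their sign under at least 1 alternative and 0 passed (smallest adjusted p = 0.0779). The changes of Rbp4 in HFC against LFC stayed negative under all 24 settings, from -1.89 to -0.79, with limma adjusted p from 0.291 to 0.993. This was not particular to Rbp4, because Lep, Retn, Cfd, Agt and Apln also kept their sign under all 24.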
